A study of Mus musculus with 9 samples.

Results

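Lipid droplets of liver cells carry a protein coat, and the genes described here encode that coat and the first step of triglyceride breakdown on its surface. They were chosen by name as the perilipins Plin1, Plin2, Plin3, Plin4 and Plin5, the CIDE proteins Cideb and Cidec, the lipases Pnpla2 and Pnpla3 and the lipase inhibitor G0s2. All 10 were found among the 24453 genes of the file. They were measured by RNA sequencing in 9 libraries of mouse liver mesenchymal cells, 3 each of steady-state hepatic stellate cells (HSCs), fibroblasts of carbon tetrachloride-injured livers (CCl4-fib) and fibroblasts of livers with diet-induced steatohepatitis (NASH-fib). The study asked how activated fibroblasts of an obesity-related fibrosis model differ from those of a chemical injury model and from resting HSCs.

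HSCs were separated by density gradient from healthy livers of wild-type C57BL/6J mice and were not sorted for GFP. CCl4-fib were CD45- GFP+ cells sorted from Col1a2-GFP Tg mice that received CCl4 by intraperitoneal injection 2 times per week for 8 weeks. NASH-fib were CD45- GFP+ cells sorted from MC/COL mice, which carry the same transgene on an MC4R-KO background, after Western diet for 20 weeks, begun in males at 8 weeks of age. The age and sex of the other groups are not given in the sources used here. The GFP transgene is driven by the collagen alpha2(I) promoter and therefore marks collagen-producing cells in both fibroblast groups. A library stands for a pool of cells from 3 to 5 mice, and nothing in the labels ties a pool to single mice. Genotype, diet, CCl4 and the way of isolation differ together between the groups, so their parts in a difference cannot be told apart. In pooled cells, fewer cells of a type and less RNA per cell cannot be told apart either.

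A lipid droplet is a core of triglycerides and, in resting HSCs, of retinyl esters, enclosed by a phospholipid layer. Perilipins sit on that layer and govern the access of lipases to the core. CIDE proteins promote the fusion and growth of droplets, Cidec in fat-storing cells and Cideb in hepatocytes, where it also takes part in very-low-density lipoprotein assembly. Pnpla2 (ATGL) removes the first fatty acid of a triglyceride and is blocked by binding of G0s2, while Pnpla3 (adiponutrin) is a related protein with lipase activity that includes retinyl esters. Resting HSCs are known as the vitamin A-storing cells of the liver and lose their droplets when they become fibroblasts.

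The 250 bases before the start of transcription are shown for the 4 members that passed the threshold in a comparison below and for Plin2, the member with the highest level. They are on the gene's own strand in RefSeq GRCm38.p6, the mm10 assembly of the file. All 10 members had a promoter in that table, Cidec and Plin5 with 2 starts each, of which the first listed was used. Pnpla3 is at chr15:84167566-84167815 (+ strand), G0s2 at chr1:193273189-193273438 (- strand), Cidec at chr6:113435761-113436010 (- strand), Plin4 at chr17:56109783-56110032 (- strand) and Plin2 at chr4:86670060-86670309 (- strand). Capitals mark the letters GGGCGG (a GC box) or AGGTCA (a nuclear receptor half-site) or their reverse complements.
Pnpla3: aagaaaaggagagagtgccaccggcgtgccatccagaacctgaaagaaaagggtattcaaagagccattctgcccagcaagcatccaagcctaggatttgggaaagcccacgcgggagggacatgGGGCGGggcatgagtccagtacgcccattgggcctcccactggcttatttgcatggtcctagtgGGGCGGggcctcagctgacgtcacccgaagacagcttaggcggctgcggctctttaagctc
G0s2: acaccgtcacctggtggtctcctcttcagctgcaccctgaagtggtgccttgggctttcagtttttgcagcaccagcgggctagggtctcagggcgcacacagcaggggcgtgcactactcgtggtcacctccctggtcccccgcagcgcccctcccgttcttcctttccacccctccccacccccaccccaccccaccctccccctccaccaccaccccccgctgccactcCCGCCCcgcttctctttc
Cidec: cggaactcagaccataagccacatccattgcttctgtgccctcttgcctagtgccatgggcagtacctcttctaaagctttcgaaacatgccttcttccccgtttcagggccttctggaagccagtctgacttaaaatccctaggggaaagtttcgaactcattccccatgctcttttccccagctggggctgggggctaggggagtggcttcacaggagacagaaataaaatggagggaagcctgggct
Plin4: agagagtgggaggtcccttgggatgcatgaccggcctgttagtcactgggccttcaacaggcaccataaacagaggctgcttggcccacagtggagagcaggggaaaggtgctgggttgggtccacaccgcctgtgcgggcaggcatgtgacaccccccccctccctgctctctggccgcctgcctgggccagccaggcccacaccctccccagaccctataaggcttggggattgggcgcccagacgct
Plin2: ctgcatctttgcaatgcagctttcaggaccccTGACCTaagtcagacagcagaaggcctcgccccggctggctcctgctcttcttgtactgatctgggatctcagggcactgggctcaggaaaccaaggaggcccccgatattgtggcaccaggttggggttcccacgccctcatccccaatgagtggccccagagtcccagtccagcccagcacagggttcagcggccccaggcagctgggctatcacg
A GC box was found in the windows of 6 of the 10 members, against 32.7% of the 32851 promoters of that length in the table. Of the sequences shown, Pnpla3 held it at positions -125 and -61 from the start and G0s2 at -18. The half-site was found in 2 members, Plin2 at -218 and Plin5 at -170, against 14% of all promoters. No member held the direct repeat bound by peroxisome proliferator-activated receptors, AGGNCA followed after 1 base by AGGNCA, which 0.338% of all promoters held. TATAAA was found in 1 member, Cideb, and in 12.4% of all promoters. Both strands were searched, the GC box and the half-site do not overlap each other in the windows shown, and a match or its absence is a description of these letters only.

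Libraries held between 3071070 and 5634273 reads on genes. The deposited value of a gene is its read count multiplied by a single factor per library, called the scaled read count here, with 1 read worth 0.794 to 1.456. Where all libraries of a group held at most 3 reads of a gene, the gene was taken to be at the floor in that group. The floor covers counting error only, and folds against it are lower bounds. Groups were compared with limma on log2(scaled read count + 1), a scale that understates the change of low genes. Calls needed a log2 fold change of 1 or more, up or down, together with an adjusted p under 0.05 over 13651 genes. The group labels were in keeping with their marker sums. The 8 markers of quiescent stellate cells summed to 29131 to 34594 for HSCs, 1988 to 5789 for CCl4-fib and 1422 to 3775 for NASH-fib. The sums of 8 markers of activated fibroblasts were 6764 to 12067, 50998 to 57347 and 29058 to 33282. Single markers differed from the sums. Postn, an activated marker, was lower in NASH-fib than in HSCs (log2 fold change -1.71, adjusted p = 0.0225) and not called in CCl4-fib. Des, a quiescent marker, was at 168 ± 135 for HSCs, 334 ± 36.3 for CCl4-fib and 543 ± 536 for NASH-fib, with no call. Of the quiescent markers, Ecm1 and Hand2 were also not called lower in CCl4-fib. Mc4r, the gene knocked out in MC/COL mice, was not read in HSCs or CCl4-fib and had 4, 13 and 0 reads over the NASH-fib replicates, which does not check the genotype.

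Pnpla3 and G0s2 fell in CCl4-fib against HSCs, Pnpla3 fell also in NASH-fib, and Cidec was not read in CCl4-fib. Plin4 rose in NASH-fib against HSCs, a call lost under several alternative settings. Its change in CCl4-fib lay just outside the threshold (adjusted p = 0.0521), and the fibroblast groups were not separated. Plin2, the most abundant coat gene in every library, did not pass the threshold in any comparison. Of the 9 members tested, 1 was higher and 1 lower in NASH-fib against HSCs, where 8.23% of all genes tested were called higher and 4.3% lower. In CCl4-fib against HSCs, 0 were higher and 3 lower, beside 16.2% and 11.7% of all genes. In NASH-fib against CCl4-fib, 1 was higher and 0 lower, beside 4.97% and 5.66%. Counts of 0 or 1 among 9 are near the background, and no test was made of the members as a set. The filter on low counts had been passed by Pnpla3 through HSC libraries alone, by Cidec and Plin5 through HSC and NASH-fib libraries and by Plin4 through fibroblast libraries. The plot of scaled read counts by library shows these levels, and that of fitted changes their intervals.

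**Figure D1:**
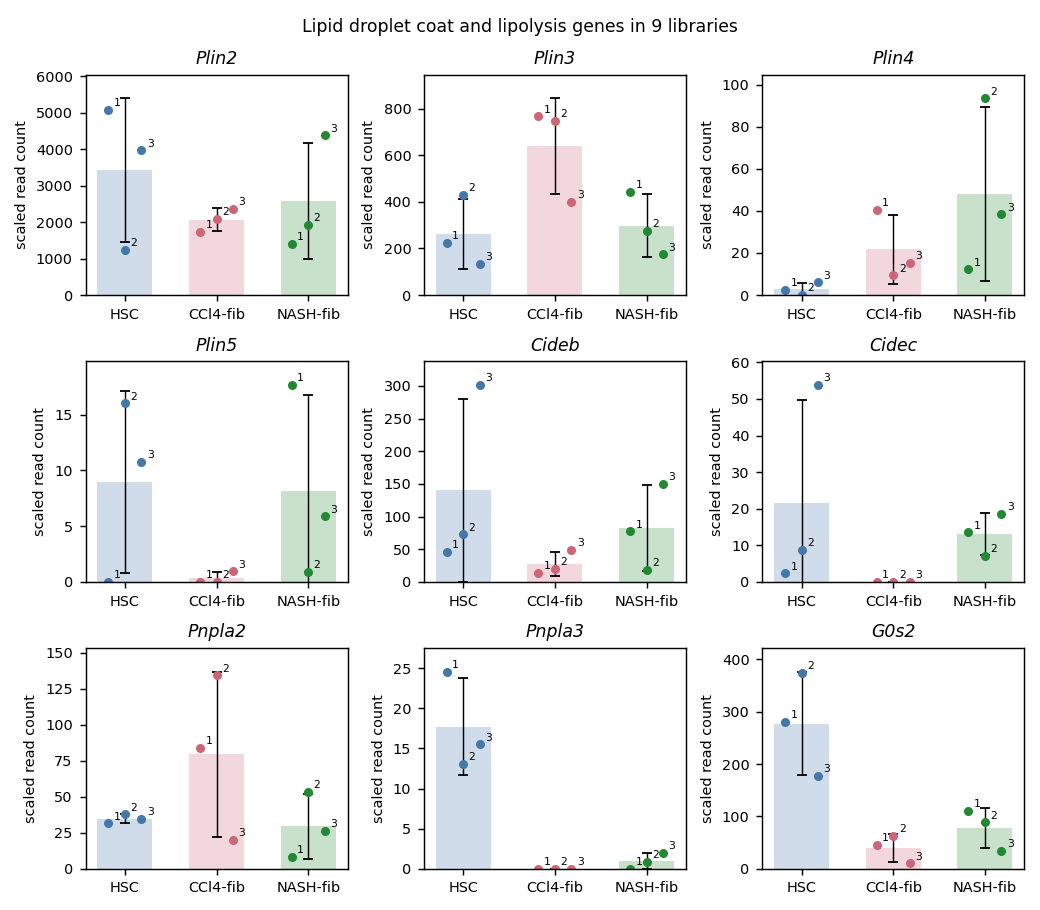
Scaled read count (y axis, linear from 0) of 9 members in HSC, CCl4-fib and NASH-fib libraries (x axis). Points are libraries with their replicate number, bars the mean and lines the SD (n = 3). G0s2 and Pnpla3 are highest in the 3 HSC libraries, and Cidec lies at 0 in the 3 CCl4-fib libraries; Plin1 had 0 reads in all 9 libraries and is not drawn.

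**Figure D2:**
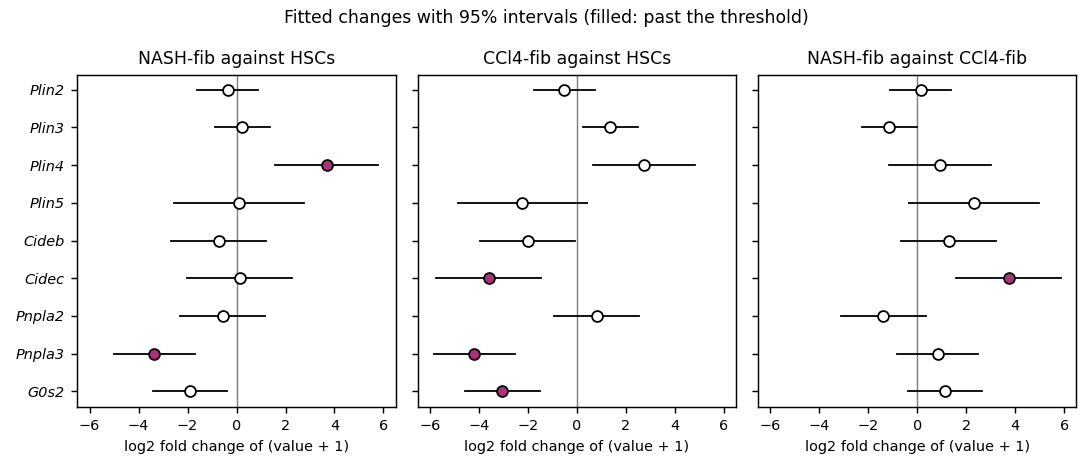
Log2 fold change of (scaled read count + 1) for 9 members (y axis) in 3 comparisons, from limma, with 95% intervals as lines. Filled points passed the threshold. Plin4 and Pnpla3 are filled in NASH-fib against HSCs, Cidec, Pnpla3 and G0s2 in CCl4-fib against HSCs, and Cidec in NASH-fib against CCl4-fib.

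Among the perilipins, Plin2 (adipophilin, the coat protein of most non-adipose cells) was the main transcript. Per length, it made up between 71.7% and 96.8% of the summed perilipin RPKM (reads scaled by exonic length and by the reads on genes) of a library. Its level was 408 ± 235 RPKM for HSCs, 246 ± 38.2 for CCl4-fib and 306 ± 189 for NASH-fib (SD, n = 3). The scaled read counts were 5068, 1238 and 3963 in HSC replicates 1 to 3. CCl4-fib had 1728, 2092 and 2368, and NASH-fib 1408, 1922 and 4381. HSC replicate 2 lay below all libraries of the other groups, while HSC replicates 1 and 3 and NASH-fib replicate 3 were the highest, so the groups overlapped. The log2 fold change was -0.36 in NASH-fib against HSCs (95% interval -1.60 to 0.89, adjusted p = 0.822) and -0.51 in CCl4-fib against HSCs (-1.76 to 0.73, adjusted p = 0.52). Between the fibroblast groups it was 0.16 (-1.09 to 1.40, adjusted p = 0.873). Each interval reaches past -1, and that between the fibroblast groups also past 1, so these libraries cannot show that the level stayed the same. Plin2 (NM_007408, chromosome 4, 86656565 to 86670059, mm10) reached 2.38 reads per base of exon in its highest library. The authors kept at most 3 reads per position and counted both strands, so the ceiling per base may lie above 3. That limit may compress differences between high libraries, which was not tested.

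Plin3 (TIP47, a ubiquitous perilipin that moves from the cytosol to new droplets) was next in level, at 27.4 ± 15.7 RPKM for HSCs, 66.5 ± 21.5 for CCl4-fib and 31 ± 14.2 for NASH-fib. Its scaled read counts were 226, 430 and 135 for HSCs, 768, 749 and 401 for CCl4-fib and 445, 275 and 175 for NASH-fib. CCl4-fib replicates 1 and 2 were above every other library, while CCl4-fib replicate 3 lay within the range of the HSCs. The log2 fold change of CCl4-fib against HSCs was 1.37 ± 0.51 (SE, adjusted p = 0.0676), and it passed without HSC replicate 2 (1.81, adjusted p = 0.0284) and without NASH-fib replicate 1 (adjusted p = 0.0408). It passed the threshold under 3 of 18 alternative settings, with adjusted p-values from 0.0284 to 0.195. In NASH-fib the change was 0.23 against HSCs (adjusted p = 0.883) and -1.14 against CCl4-fib (95% interval -2.27 to -0.01, adjusted p = 0.169). The Plin3 share was lowest in HSC replicate 3 (2.88%), NASH-fib replicate 3 (3.36%) and HSC replicate 1 (3.74%), the libraries with the most Plin2, and highest in CCl4-fib replicate 1 (27.8%).

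Plin4 (S3-12, a perilipin of nascent droplets best known from adipocytes and muscle) was rare in HSCs, with 2, 0 and 5 reads, or scaled read counts of 2.34, 0 and 5.98. It reached 12.2, 93.5 and 38.3 in NASH-fib and 40.5, 9.36 and 15.3 in CCl4-fib. All 6 fibroblast libraries lay above the 3 HSC libraries, and the fibroblast groups overlapped. Against HSCs, Plin4 rose in NASH-fib by 3.68 ± 0.94 on the log2 scale (SE, 95% interval 1.59 to 5.77, adjusted p = 0.0263). The call was lost without HSC replicate 1 (adjusted p = 0.0692), without HSC replicate 2 (0.0803), without NASH-fib replicate 2 (0.106) and without NASH-fib replicate 3 (0.0825). It was also lost in the fit on the 2 groups alone (0.0588), with the replicate block (0.0587) and with the prefix of the library labels as a term (0.29). Over 18 alternatives it held in 11, with adjusted p-values from 0.000965 to 0.29. Plin4 had passed the count filter through fibroblast libraries alone, so these values describe its levels and are not separate support. Within NASH-fib, the order of Plin4 was that of 6 neutrophil markers, whose sums were 591, 6035 and 1196. The orders differed in HSCs, with sums of 51.4, 1031 and 47.8, and in CCl4-fib, with 5.55, 37.4 and 65.8. Des, named after seeing the values, had the order of Plin4 within each group. It was at 168, 32 and 302 for HSCs, 365, 294 and 343 for CCl4-fib and 32.6, 1102 and 495 for NASH-fib. The part of neutrophils or of Des-expressing cells in Plin4 was not tested. In CCl4-fib the change was 2.74 ± 0.94 (95% interval 0.66 to 4.83, adjusted p = 0.0521), just outside the threshold. It was called in 5 of 18 alternatives, with adjusted p-values from 0.0213 to 0.184, among them those without HSC replicate 3 (0.032) and without NASH-fib replicate 1 (0.0297) or 2 (0.0456). NASH-fib and CCl4-fib differed by 0.94 (-1.15 to 3.03, adjusted p = 0.535), which does not separate the fibroblast groups. Per length the gene stayed low, at 1.87 ± 1.62 RPKM in NASH-fib.

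Plin5 (OXPAT, which ties droplets to mitochondria in cells that burn fat) was read in few copies. The scaled read counts were 0, 16 and 10.8 for HSCs, 0, 0 and 0.95 for CCl4-fib and 17.7, 0.89 and 5.9 for NASH-fib. CCl4-fib was at the floor in all libraries, and its levels overlapped those of HSC replicate 1, which had 0 reads. Mean levels in HSCs were at least 3.44-fold higher and in NASH-fib at least 3.14-fold higher than the floor of CCl4-fib. The first bound is 2.07-fold without HSC replicate 2, and the second is 1.31-fold without NASH-fib replicate 1. Neither difference passed the threshold (adjusted p = 0.19 and 0.227), and DESeq2 called both (adjusted p = 0.0288 and 0.0449). Without HSC replicate 1 the first was also called (adjusted p = 0.0446). Over the 18 alternatives the adjusted p-values of these differences ran from 0.0288 to 0.496 and from 0.0449 to 0.528. NASH-fib and HSCs differed by 0.09 (95% interval -2.55 to 2.74). Plin1 (perilipin 1, the coat protein of adipocyte droplets) had 0 reads in all 9 libraries, which for each library allows up to 3 reads, or a scaled read count of 2.38 to 4.37. The 5 adipocyte markers summed to between 0 and 8.37, and Adipoq, which encodes adiponectin, had 0 reads in the HSC and NASH-fib libraries and values of 4.76, 0 and 0.95 in CCl4-fib.

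Of the CIDE genes, Cidec (Fsp27) showed the widest gap between the fibroblast groups. It had 0 reads in each CCl4-fib library, scaled read counts of 13.6, 7.13 and 18.7 in NASH-fib and 2.34, 8.74 and 53.8 in HSCs. All HSC and NASH-fib libraries lay above CCl4-fib, but HSC replicate 1 held 2 reads only. HSCs were at least 8.32-fold and NASH-fib at least 5.05-fold above the floor of CCl4-fib. The first bound rests on HSC replicate 3, without which it is 2.13-fold. The fitted change of CCl4-fib against HSCs was -3.60 ± 0.97 (SE, adjusted p = 0.0192), and that of NASH-fib against CCl4-fib was 3.73 ± 0.97 (adjusted p = 0.036). The first was lost without HSC replicate 3 (log2 fold change -2.51, adjusted p = 0.0574) and without CCl4-fib replicate 1 (0.0524) or 2 (0.0543). Over 18 alternatives it held in 14, with adjusted p-values from 0.000103 to 0.0574. The second held in 9 of 18, with adjusted p-values from 0.00108 to 0.116, and was lost without any CCl4-fib replicate (0.0951, 0.116 and 0.0878 for replicates 1 to 3) and without NASH-fib replicate 1 (0.0834) or 3 (0.11). NASH-fib and HSCs differed by 0.13 (95% interval -2.01 to 2.27, adjusted p = 0.975). Cidec had passed the count filter through HSC and NASH-fib libraries alone, so its calls against CCl4-fib describe its levels and are not separate support.

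Cideb had scaled read counts of 45.6, 72.8 and 301 for HSCs, 14.3, 20.4 and 48.7 for CCl4-fib and 77.5, 18.7 and 150 for NASH-fib. HSC replicate 3 was the highest by a wide margin, and the groups overlapped. The change of CCl4-fib against HSCs was -2.00 ± 0.88 (adjusted p = 0.115), called in 2 of 18 alternatives, DESeq2 (adjusted p = 0.0197) and the replicate block (0.0456), whose adjusted p-values ran from 0.0197 to 0.305. The other comparisons gave -0.72 for NASH-fib against HSCs (adjusted p = 0.749) and 1.28 for NASH-fib against CCl4-fib (adjusted p = 0.361). The level of Cideb is uncertain, since 1136 of its 1488 exonic bases are shared with Nop9 on the opposite strand and reads of both strands were counted. Nop9 itself had values of 87.7, 166 and 307 for HSCs, 54.8, 45.9 and 87.8 for CCl4-fib and 101, 25.8 and 150 for NASH-fib, which follow the order of Cideb in HSCs and in NASH-fib.

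Hepatocyte and macrophage transcripts both varied with Cideb and Cidec. The 15 hepatocyte markers, all with reads in every library, summed to 33874, 41230 and 71514 in HSC replicates 1 to 3. The sums were 12241, 13294 and 16498 for CCl4-fib and 39776, 13264 and 39791 for NASH-fib. HSC replicate 3, which had the highest Cideb and Cidec, had the highest sum. NASH-fib replicate 2, which had the lowest Cideb and Cidec of its group, had the lowest sum of its group. Trf alone, which was higher in every CCl4-fib library than in any HSC library, made up 74.6% to 80.7% of the CCl4-fib sums. Without it, a choice made after seeing the values, the other 14 markers summed to 30373, 34626 and 63274 for HSCs, 2618, 2563 and 4183 for CCl4-fib and 34921, 8208 and 31950 for NASH-fib, so that NASH-fib replicate 2 lay between CCl4-fib and the rest. Plin5 had the order of the sums without Trf within NASH-fib. It did not within HSCs, with 0 reads in HSC replicate 1 at a sum of 30373. Of the 15 markers, 12 were lower in CCl4-fib than in HSCs, 7 were higher in NASH-fib than in CCl4-fib and 0 passed between NASH-fib and HSCs. The sums of 8 macrophage markers were 2688, 3397 and 9298 for HSCs and 805, 519 and 2173 for NASH-fib. They had the order of Cideb and Cidec within both groups. In CCl4-fib, at 184, 282 and 263, they did not have the order of Cideb. The sums without Trf put NASH-fib replicate 1 above replicate 3, unlike Cideb and Cidec. The part of hepatocyte or macrophage RNA in the levels of these genes was not tested.

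**Figure D3:**
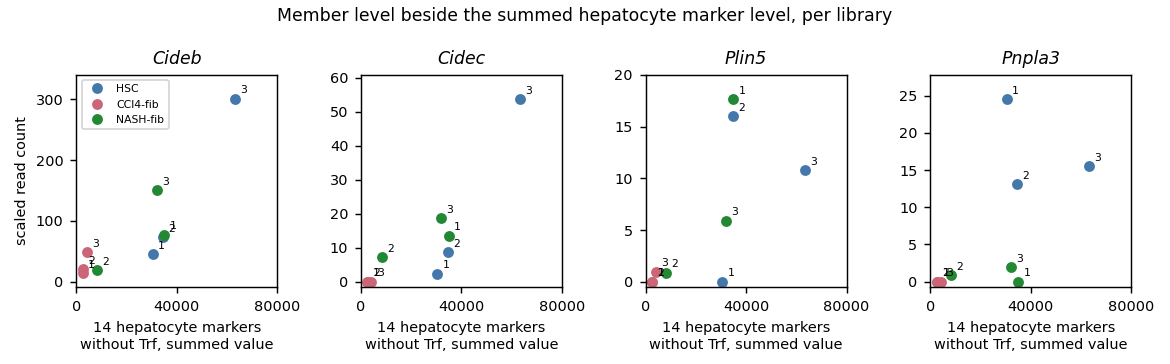
Scaled read count of Cideb, Cidec, Plin5 and Pnpla3 (y axes, linear) against the summed value of 14 hepatocyte markers, Trf left out (x axis), per library, coloured by group and numbered by replicate. HSC replicate 3 is at the top right for Cideb and Cidec. For Pnpla3, the 3 NASH-fib libraries stay near 0, at marker sums from 8208 to 34921.

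Pnpla3 was present in all HSC libraries and nearly absent from both fibroblast groups. It had 21, 9 and 13 reads in HSCs (scaled read counts of 24.6, 13.1 and 15.5), none in CCl4-fib, and 0, 1 and 2 over the NASH-fib replicates (0, 0.89 and 1.97). No fibroblast library reached the lowest HSC library. The mean in HSCs was at least 6.83-fold above the floor of CCl4-fib and at least 5.49-fold above that of NASH-fib. The fitted change was -4.18 ± 0.74 in CCl4-fib (SE, adjusted p = 0.00212) and -3.35 ± 0.74 in NASH-fib (adjusted p = 0.0125). The call in CCl4-fib held under all 18 alternatives, with adjusted p-values up to 0.0298. The call in NASH-fib held in 16 of 18, with adjusted p-values from 0.00351 to 0.213. It was lost without HSC replicate 1 (adjusted p = 0.067) and with the label prefix as a term (0.213). Since Pnpla3 passed the count filter through HSC libraries alone, these calls and their stability describe its levels and are not separate support. NASH-fib replicates 1 and 3 had hepatocyte marker sums without Trf of 34921 and 31950, and HSC replicate 2 had 34626. Their Pnpla3 reads were 0, 2 and 9. Trf was left out after seeing the values, these reads are few, and the part of hepatocyte RNA in Pnpla3 was not tested. Per length Pnpla3 was low even in HSCs, at 0.855 ± 0.291 RPKM. Its entry (NM_054088, chromosome 15, 84167816 to 84189521) has 4639 exonic bases. The annotation used for overlaps held 1548, of which 105 are shared with Gm49513, and the rest of the entry was not checked.

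G0s2 (NM_008059, chromosome 1, 193272160 to 193273188) had scaled read counts of 281, 374 and 177 in HSCs. CCl4-fib had 45.2, 62.9 and 10.5, and NASH-fib had 110, 89.1 and 34.4. The lowest HSC library exceeded every fibroblast library, and the fibroblast groups overlapped. G0s2 fell by 3.04 on the log2 scale in CCl4-fib against HSCs (SE 0.69, 95% interval -4.55 to -1.52, adjusted p = 0.00804), under all 18 alternatives, with adjusted p-values from 0.000126 to 0.0399. In NASH-fib the change was -1.91 ± 0.69 (-3.43 to -0.39, adjusted p = 0.109), past the threshold in 2 of 18 alternatives, 1 of which left out CCl4-fib replicate 3 (adjusted p = 0.0492). Adjusted p-values over those alternatives ran from 0.0324 to 0.78. NASH-fib and CCl4-fib differed by 1.13 (-0.39 to 2.64, adjusted p = 0.304), so that the fall in CCl4-fib is not shown to differ from the change in NASH-fib. Markers of sinusoidal endothelium fell beside it. The sums of 6 such markers were 8438, 4798 and 10832 for HSCs, 194, 179 and 161 for CCl4-fib and 1478, 861 and 2932 for NASH-fib, with 6 and 4 of 6 called lower in CCl4-fib and NASH-fib against HSCs and 6 higher in NASH-fib against CCl4-fib. The sums of 8 macrophage markers were 2688, 3397 and 9298 for HSCs, 184, 282 and 263 for CCl4-fib and 805, 519 and 2173 for NASH-fib, with 6 and 3 of 8 lower in CCl4-fib and NASH-fib and 3 higher in NASH-fib than in CCl4-fib. HSC replicate 3, with the highest sums of both, had the least G0s2 of the HSCs. Single endothelial markers varied in order over these replicates, with Lyve1 at 299, 645 and 233 and Clec4g at 4881, 1884 and 6682. The part of endothelial cells and macrophages in the levels of G0s2, Pnpla3 and Cidec was not tested.

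Pnpla2, the lipase that G0s2 binds, had scaled read counts of 31.6, 37.9 and 34.7 in HSCs. CCl4-fib had 84.1, 134 and 20, and NASH-fib had 8.16, 53.4 and 26.5. The HSC libraries lay close together, while both fibroblast groups spread above and below them. The log2 fold change was 0.81 in CCl4-fib (95% interval -0.94 to 2.55, adjusted p = 0.467), -0.57 in NASH-fib (-2.32 to 1.17, adjusted p = 0.786) and -1.38 between NASH-fib and CCl4-fib (-3.13 to 0.36, adjusted p = 0.273). Its entry in the file (chromosome 7, 141455188 to 141460743) is a non-coding transcript of the gene, NR_028142, into which the transcripts of Pnpla2 were condensed. Per length, the ratio of G0s2 to Pnpla2 RPKM was 28.7, 31.9 and 16.5 for HSCs, 1.73, 1.51 and 1.69 for CCl4-fib and 43.6, 5.38 and 4.18 for NASH-fib. The 3 CCl4-fib libraries had the lowest ratios although their levels of both genes differed between replicates. NASH-fib replicate 1, at 6 reads of Pnpla2, had the highest. The ratio is given as a description with no test.

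**Figure D4:**
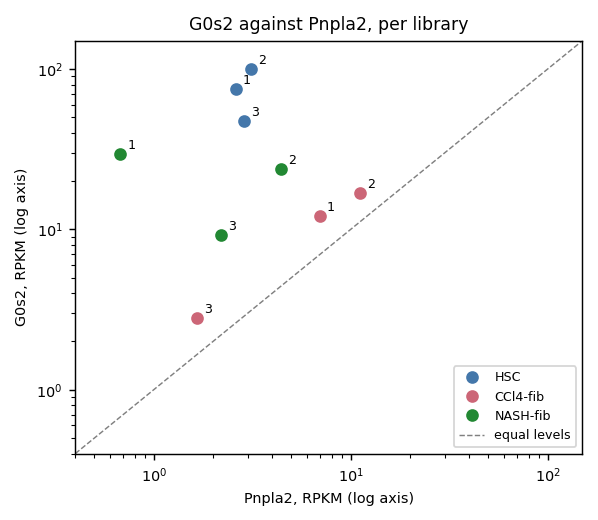
G0s2 against Pnpla2, both in RPKM (log axes), with 1 point per library, numbered by replicate. The dashed line marks equal levels. CCl4-fib libraries lie just above the line, at ratios of 1.51 to 1.73, and HSC libraries far above it, at 16.5 to 31.9.

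The other genes of neutral lipid storage came from 5 lists with 100 entries, of which 98 were in the file and 88 were tested. In NASH-fib against HSCs 5 were higher and 4 lower, beside 8.23% and 4.3% of all genes tested. In CCl4-fib against HSCs 14 were higher and 23 lower, beside 16.2% and 11.7%, and in NASH-fib against CCl4-fib 10 and 1, beside 4.97% and 5.66%. The 23 lower and the 10 higher of 88 are above these shares, and the other counts are near or below them, with no test made. The medians of their log2 fold changes were -0.17, -0.04 and 0.10, beside -0.02, 0.18 and -0.11 over all genes tested. The plot of called genes by list gives the split. The hepatocyte, macrophage and sinusoidal endothelium marker sums given above were also lower in CCl4-fib than in HSCs. Ces1f, Hsd17b13, Slc27a2 and Ppara are named below as higher in NASH-fib than in CCl4-fib. Within NASH-fib, all had the order of the hepatocyte marker sums without Trf. Macrophage and endothelial sums were also lowest in NASH-fib replicate 2. The part of these other cells in the counts and in the levels of these genes was not tested.

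**Figure D5:**
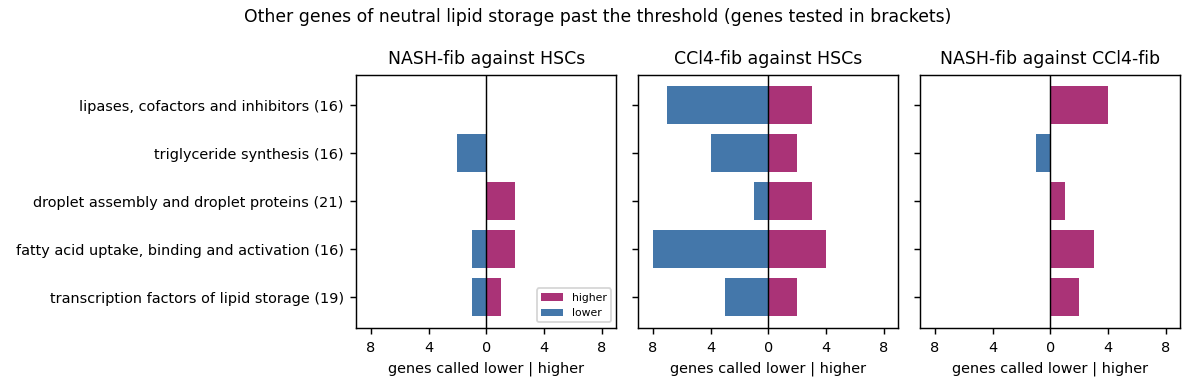
Number of genes called lower (left of 0) and higher (right of 0) in each of 5 lists of lipid storage genes, in 3 comparisons, with the number of genes tested in brackets. In CCl4-fib against HSCs, 8 genes of fatty acid uptake, binding and activation and 7 of the lipases were lower, and in NASH-fib against HSCs 0 lipases passed the threshold.

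Among 16 lipases, cofactors and inhibitors tested, 3 were higher and 7 lower in CCl4-fib against HSCs, 4 were higher and 0 lower in NASH-fib against CCl4-fib, and none passed in NASH-fib against HSCs. The 3 are near the 16.2% of all genes called higher, and the 7 and the 4 above the 11.7% lower and 4.97% higher. Lipe (hormone-sensitive lipase, which acts after Pnpla2) rose in CCl4-fib by 2.18 on the log2 scale (adjusted p = 0.0299), from 8.24 ± 4.23 in HSCs to 39.3 ± 15.9. It shares 918 exonic bases with another gene. Mgll (monoacylglycerol lipase, the last step) fell by 1.81 (adjusted p = 0.0152), from 763 ± 170 to 240 ± 150, and shares 167 exonic bases with an opposite-strand gene. The calls of Lipe and Mgll were both lost without HSC replicate 1 and without CCl4-fib replicate 2 or 3 (highest adjusted p of 0.193 and 0.0981 over 18 alternatives). Ces1f, a carboxylesterase, fell by 6.71 in CCl4-fib (adjusted p = 0.000501) and was higher by 4.64 in NASH-fib than in CCl4-fib (adjusted p = 0.0162). The latter held in 14 of 18 alternatives and was lost without CCl4-fib replicate 1 or 2 or NASH-fib replicate 3 (highest adjusted p = 0.0749). Ces1f was at 106, 11.6 and 64.9 over NASH-fib replicates 1 to 3. Abhd5 (CGI-58), the activator of Pnpla2, which shares 950 exonic bases with an opposite-strand gene, was at 138 ± 48 for HSCs, 212 ± 38.5 for CCl4-fib and 124 ± 67.2 for NASH-fib, with adjusted p-values of 0.258 to 0.853. Hilpda, another inhibitor of Pnpla2, was at 172 ± 110, 294 ± 107 and 109 ± 83.8, with adjusted p-values of 0.168 to 0.632. Neither passed the threshold in any comparison.

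In triglyceride synthesis, 16 genes were tested. In NASH-fib against HSCs 0 were higher and 2 lower, in CCl4-fib against HSCs 2 and 4, and in NASH-fib against CCl4-fib 0 and 1. The 2 and 4 of CCl4-fib stand beside 16.2% and 11.7% of all genes, the 2 lower of NASH-fib beside 4.3% and the 1 beside 5.66%. Lrat, which esterifies retinol for storage and is also among the quiescent stellate cell markers, fell by 5.30 in NASH-fib (adjusted p = 0.000128) and by 5.70 in CCl4-fib (adjusted p = 6.02e-05). Gpam, the first acyltransferase of glycerolipid synthesis, rose by 2.12 in CCl4-fib (adjusted p = 0.0131). Dgat2, which makes triglyceride, fell by 3.16 in CCl4-fib (adjusted p = 0.0302), where HSC values of 26.9, 13.1 and 177 met 3.17, 1.7 and 7.63. Dgat1, the other enzyme of that step, did not pass, with adjusted p-values of 0.316 to 0.854. Soat1, which makes cholesteryl esters, was lower in NASH-fib than in CCl4-fib by 2.34 on the log2 scale (187 ± 64.6 against 959 ± 330, adjusted p = 0.0125). That call was lost without CCl4-fib replicate 2 or NASH-fib replicate 3 (highest adjusted p = 0.0629). The call of Gpam was lost without CCl4-fib replicate 1 or 2 (highest 0.0624 over 18 alternatives), and that of Dgat2 without HSC replicate 1 or 3 or CCl4-fib replicate 1 or 2 (highest 0.107).

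Of 21 droplet assembly and droplet protein genes, 2 were higher and 0 lower in NASH-fib against HSCs, 3 and 1 in CCl4-fib against HSCs and 1 and 0 in NASH-fib against CCl4-fib. The higher counts are near the 8.23%, 16.2% and 4.97% of all genes. Cav1 (caveolin-1, found on caveolae and droplets) rose from 350 ± 66.1 in HSCs to 10900 ± 597 in NASH-fib (log2 fold change 4.97, adjusted p = 1.09e-05) and to 6085 ± 707 in CCl4-fib (4.13, adjusted p = 1.65e-05). Whether the limit of 3 reads per position held down these high levels was not tested. Hsd17b13, a droplet protein of hepatocytes, was at 62, 134 and 72.9 for HSCs, 0.79, 11.9 and 19.1 for CCl4-fib and 801, 32.1 and 420 for NASH-fib. It fell by 3.47 in CCl4-fib (adjusted p = 0.048) and was higher by 4.85 in NASH-fib than in CCl4-fib (adjusted p = 0.0286). The fall held in 6 of 18 alternatives (highest adjusted p = 0.18) and was lost when any 1 HSC library, CCl4-fib replicate 1 or 2 or NASH-fib replicate 3 was left out. The difference between fibroblasts held in 11 (highest adjusted p = 0.0971) and was lost without CCl4-fib replicate 1 or 2 or NASH-fib replicate 1 or 3. Cidea, the third CIDE gene, had values of 52.6, 0 and 482 in HSCs and did not pass, with adjusted p-values of 0.207 to 0.928. As with Cidec, its highest value was in HSC replicate 3.

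Of 16 genes of fatty acid uptake, binding and activation, 2 were higher and 1 lower in NASH-fib against HSCs, 4 and 8 in CCl4-fib against HSCs and 3 and 0 in NASH-fib against CCl4-fib. Of all genes, 8.23% and 4.3%, 16.2% and 11.7%, and 4.97% and 5.66% were called, in that order. Vldlr, a receptor that takes up triglyceride-rich lipoproteins, was at the floor in HSCs (1.17, 0 and 1.2) and was read in NASH-fib (336, 211 and 183) and CCl4-fib (124, 129 and 136). These means were at least 63.7-fold and at least 34-fold above the floor of the HSCs, with adjusted p-values of 1.67e-05 and 2.86e-05. Slc27a2, a fatty acid transporter and acyl-CoA synthetase, fell by 6.85 in CCl4-fib (adjusted p = 0.00141) and was higher by 4.53 in NASH-fib than in CCl4-fib (adjusted p = 0.0314). The latter held in 10 of 18 alternatives (highest adjusted p = 0.109) and was lost when any 1 CCl4-fib library or NASH-fib replicate 1 or 3 was left out. Slc27a2 was at 237, 8.02 and 97.3 over NASH-fib replicates 1 to 3, and its exons share 419 bases with an opposite-strand gene. Slc27a5, of the same family, fell by 6.05 in CCl4-fib (adjusted p = 0.00116), under all 18 alternatives. It fell by 3.26 in NASH-fib (adjusted p = 0.0497), a call that held in 6 of 18 alternatives and was lost when any HSC library, CCl4-fib replicate 2 or 3 or NASH-fib replicate 1 or 2 was left out (adjusted p up to 0.208 over all alternatives).

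Of 19 transcription factors and coactivators of lipid storage, 1 was higher and 1 lower in NASH-fib against HSCs, 2 and 3 in CCl4-fib against HSCs and 2 and 0 in NASH-fib against CCl4-fib. These are near the shares of all genes, 8.23% and 4.3%, 16.2% and 11.7%, and 4.97% and 5.66%. Ppara, the receptor that drives fatty acid oxidation, was at 195 ± 80.3 for HSCs, 14.1 ± 6.3 for CCl4-fib and 129 ± 79.6 for NASH-fib. Over NASH-fib replicates 1 to 3 it was at 181, 37.4 and 169. It fell by 3.68 in CCl4-fib (adjusted p = 0.00223) and was higher by 2.89 in NASH-fib than in CCl4-fib (adjusted p = 0.0241). The latter held in 13 of 18 alternatives (highest adjusted p = 0.0883) and was lost when any 1 CCl4-fib library or NASH-fib replicate 1 or 3 was left out. Pparg, the receptor known to drive Plin, Cidec and G0s2 transcription in fat cells, was at 28 ± 16.9, 10.6 ± 12.2 and 22.6 ± 11.9 and did not pass in any comparison (adjusted p-values of 0.166 to 0.929). Ppargc1a, a coactivator of mitochondrial genes, rose by 4.44 in NASH-fib (adjusted p = 0.00315) and by 3.34 in CCl4-fib (adjusted p = 0.00884). Nr1h4, the bile acid receptor FXR, fell by 3.31 in NASH-fib (adjusted p = 0.0025) and fell by 3.12 in CCl4-fib (adjusted p = 0.00208).

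The members did not share a pattern over the 9 libraries. On the log2 scale, Pearson's r between pairs of members ran from -0.77 for Plin3 and Cidec to 0.81 for Cideb and Cidec. Plin5 gave 0.80 with Cidec and 0.76 with Cideb, and Pnpla3 gave 0.76 with G0s2. Plin2 gave -0.73 with Plin3 and at most 0.48 with any other member. These values describe 9 libraries that fall into 3 groups and share the hepatocyte and macrophage marker levels given above, and carry no test. Among all genes tested, those closest to Pnpla3 were Cflar (r = 0.994) and Galnt14 (0.984), and those closest to G0s2 were Arhgef15 (0.983) and Cysltr1 (0.971). Cideb was closest to Mttp (0.945) and Acsm1 (0.939), Cidec to Ctss (0.963) and Shmt1 (0.961), and Plin5 to Acaa1b and Tdo2 (both 0.967). Plin4 was closest to Cox4i2 (0.986) and Dusp8 (0.970), Plin2 to Ttll4 (0.954) and Fam188b (0.941), Plin3 to Rhbdf2 (0.967) and Wdr77 (0.966), and Pnpla2 to Ddx31 (0.944) and St6galnac4 (0.934). Each was picked as the highest among the genes tested.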

How the data were processed

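SMARTer-amplified RNA of 3 pools per group gave single-end reads, aligned by the authors to mm10 with STAR. The deposited values are a signal per gene from HOMER, whose commands the file's header keeps: it counted both strands of RefSeq exons, kept no more than 3 reads at a position and condensed each gene to 1 entry. The authors scaled each library by a single factor in a normalization over 10 libraries, of which the tenth has no column here. In units of 1 read, 100% of the values were whole. Columns of other samples left unused numbered 0. RPKM was computed here from these reads and the exonic lengths in the file.

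The 9 libraries, with 3071070 to 5634273 reads, were grouped by their titles. Limma 3.58.1 (R 4.3.3) was fitted to log2(value + 1) in 1 fit over the 3 groups, with a mean-dependent prior variance. It covered the 13651 genes passing edgeR's filterByExpr (minimum count 10), with Benjamini-Hochberg adjustment. The fit was tested on simulated data, in which changed genes had a mean of at least 10 reads. Genes as rare as Pnpla3 and Plin5 were not covered by that test. P-values measure the spread between pools. Alternatives were edgeR 4.0.16, DESeq2 1.42.0, log2 CPM, no filter, other pseudocounts, the 2 groups compared alone, terms for replicate number or label prefix, and each library left out.

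The members and lists were chosen with earlier results of these data known. Named were the members, 8 fixed genes (Abhd5, Lipe, Mgll, Hilpda, Dgat1, Dgat2, Pparg and Cidea), the called gene with the largest change per list, comparison and direction, and the 2 genes most correlated with each member. Mc4r, Nop9, Adipoq and Trf were named to check labels, overlap and cell types. Postn, Des, Ecm1, Hand2, Lyve1 and Clec4g were named after seeing the values. Of 6 neutrophil markers, 4 were higher in NASH-fib than in CCl4-fib and 0 were called against HSCs. Trf was left out of the hepatocyte sums as a choice made after seeing the data.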

Additional observations from a re-analysis of the deposited data

How the results depend on the processing

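Of 486 fold changes of members under 18 alternatives, 430 kept their direction and their side of the threshold, 22 lost a call, 15 gained 1 and 19 changed direction. Pnpla3 and G0s2 in CCl4-fib against HSCs were called under all alternatives, though Pnpla3 had passed the count filter through HSC libraries alone. In order of members called higher in NASH-fib against HSCs, in CCl4-fib against HSCs and in NASH-fib against CCl4-fib, and then lower in the same order, the counts were 1, 0, 1, 1, 3 and 0. DESeq2 gave 1, 1, 2, 1, 5 and 0, the fit on the 2 groups alone 0, 1, 1, 1, 3 and 0, and the replicate block 0, 1, 0, 2, 4 and 0. The day-like prefix of the library labels, which the labels do not explain, gave 0, 0, 0, 0, 3 and 0 as a term. Of 4 prefixes, 1 covered all groups, with 1 library each, and within-prefix differences rest on 2 or 3 libraries. On the log2 scale, Pnpla3 differed from HSCs by -3.82 in both fibroblast groups in that prefix and by -4.05 in CCl4-fib in another. In the same prefixes, CCl4-fib differed from HSCs by -3.02 and -1.48 for G0s2 and by -3.28 and -5.78 for Cidec. For Plin4 these differences were 5.37 and 0.57. In NASH-fib, Plin4 differed from HSCs by 3.73 in the prefix that covered all groups. Between NASH-fib and CCl4-fib, Plin4 differed by -1.65 in that prefix and by 1.91 in another, so the order of the fibroblast groups reversed. Cidec was higher in NASH-fib than in CCl4-fib by 3.87 and 3.66. Log2 CPM with TMM scaling and the pseudocount of 5 both gave 0 members higher in NASH-fib against CCl4-fib. Leaving out each library in turn gave 0 to 1, 0 to 2, 0 to 1, 0 to 2, 2 to 4 and 0 to 0.

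For lipid storage genes the counts, in that order, were 5, 14, 10, 4, 23 and 1. DESeq2 gave 16 higher in NASH-fib against CCl4-fib, 7 lower in NASH-fib against HSCs and 3 lower in NASH-fib against CCl4-fib. The label prefix gave 2, 5, 2, 3, 12 and 1. The 2 groups alone gave 3 higher in NASH-fib against HSCs and 2 lower in NASH-fib against CCl4-fib, the pseudocount of 5 gave 2 lower there, and the replicate block gave 5 higher there. Leaving out each library gave 3 to 6, 5 to 17, 0 to 12, 3 to 4, 13 to 23 and 0 to 3. Without HSC replicate 1, 13 were lower in CCl4-fib, and without CCl4-fib replicate 2 or NASH-fib replicate 3, 0 were higher in NASH-fib against CCl4-fib.

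Changes of direction concerned differences that passed no threshold. For NASH-fib against HSCs, Cidec gave -0.64 with edgeR, -0.62 with DESeq2, -0.05 with the pseudocount of 5, -0.36 with the label prefix and -0.80 to 1.22 leaving out libraries. Plin5 gave -0.04 with edgeR, -0.06 with the pseudocount of 5, -0.96 with the label prefix and -1.18 to 0.96 leaving out libraries. Leaving out libraries, Plin2 ran from -0.97 to 0.04, Plin3 from -0.16 to 0.67, Cideb from -1.37 to 0.11 and Pnpla2 from -1.16 to 0.12, and Plin2 between the fibroblast groups from -0.31 to 0.50. The cause was not tested.

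The replicate numbers do not pair the libraries: same-number correlations of deviations ran from -0.473 to 0.514 over 9 pairs, and 3 of 9 libraries correlated best with their own number. With the replicate block, Plin4 in NASH-fib against HSCs had an adjusted p of 0.0587 (limma) and G0s2 of 0.0324, Cidec in NASH-fib against CCl4-fib of 0.0515, and in CCl4-fib against HSCs Plin3 of 0.0372 and Cideb of 0.0456. The median of all genes tested was 0.18 in CCl4-fib against HSCs and -0.111 in NASH-fib against CCl4-fib, and 0.062 and 0.068 with TMM scaling. Members with fewer than 20 reads in most libraries (Plin4, Plin5, Cidec and Pnpla3) are limited by depth.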
